A study of Caenorhabditis elegans with 2 samples.

Results

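The regions described here are the X chromosome peaks of CEH-16 whose summit lay within 1000 bp of the start of a protein-coding gene. They were taken from the peak list called on the pooled replicates, and the start is the 5' end of the gene in the annotation. The authors label this list, and each replicate list, as peaks and background for input to a reproducibility threshold. A peak in it is therefore not by itself shown to be a bound site. There were 1789 such peaks among the 5757 pooled peaks on X and the 30000 pooled peaks in all. Of the 1789, 15.3% were in neither replicate list. They are set against 9834 autosomal peaks near starts and against the 3968 X peaks farther from any start. CEH-16 is a homeodomain protein, related to engrailed, and its binding was mapped by chromatin immunoprecipitation and sequencing. The only group was L3 larvae of strain OP82, genotype unc-119(tm4063) III; wgIs82, in which a transgene makes CEH-16 with a C-terminal tag of GFP and FLAG. The 2 biological replicates were of entire animals of both sexes, their age being given as unknown, so no contrast between conditions exists. Binding in different tissues cannot be told apart in such material, and the signal is of the tagged transgene product.

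CEH-16 is known for its role in the seam cells, the lateral epidermal stem cells of the worm, where it helps keep cells from fusing with the surrounding epidermis. Homeodomain proteins of the engrailed class typically bind words built around TAAT, such as TAATTA. The X chromosome differs from the autosomes in being the target of the dosage compensation complex, which lowers X expression in hermaphrodites and which is recruited at elements with a motif that holds the letters CGCGCAGGG. Tandem GA repeats, such as GAGAGA, are common in worm promoters.

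Sequences at the summits of 8 of the strongest X peaks near starts show what letters lay under the highest signal. Each is the summit base with 50 bases to either side, read from the plus strand of ce11 (RefSeq WBcel235), in lower case. Capitals mark the word CGCGCA, the word CGCAGGG and the word GAGAGA, or a reverse complement of one.
nspc-17: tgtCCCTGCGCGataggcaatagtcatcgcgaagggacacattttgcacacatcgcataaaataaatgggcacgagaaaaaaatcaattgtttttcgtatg
ins-39: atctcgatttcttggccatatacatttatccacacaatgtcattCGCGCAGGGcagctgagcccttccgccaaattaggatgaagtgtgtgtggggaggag
puf-9: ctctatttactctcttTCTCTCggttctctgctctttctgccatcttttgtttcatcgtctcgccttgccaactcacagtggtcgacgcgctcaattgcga
rpl-11.2: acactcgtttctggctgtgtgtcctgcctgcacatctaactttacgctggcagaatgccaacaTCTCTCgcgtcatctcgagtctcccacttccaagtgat
R11.4: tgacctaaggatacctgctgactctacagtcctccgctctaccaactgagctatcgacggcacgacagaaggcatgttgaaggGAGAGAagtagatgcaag
eef-1A.2: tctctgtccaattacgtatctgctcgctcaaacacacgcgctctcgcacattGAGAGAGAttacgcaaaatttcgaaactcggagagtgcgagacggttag
sor-3: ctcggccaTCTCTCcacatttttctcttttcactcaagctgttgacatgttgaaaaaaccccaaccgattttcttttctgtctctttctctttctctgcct
nfki-1: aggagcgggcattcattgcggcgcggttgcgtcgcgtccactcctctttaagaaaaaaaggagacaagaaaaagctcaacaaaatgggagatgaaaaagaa
The windows lie at chrX:14525897-14525997 (nspc-17), chrX:1345011-1345111 (ins-39), chrX:5841217-5841317 (puf-9), chrX:2242967-2243067 (rpl-11.2), chrX:16209793-16209893 (R11.4), chrX:7823205-7823305 (eef-1A.2), chrX:353322-353422 (sor-3) and chrX:15354247-15354347 (nfki-1). All 8 summits lay outside protein-coding genes, with the R11.4 summit inside a tRNA gene, and windows that touched an untranslated region were not printed. A peak is named after the nearest protein-coding start, which does not show that the gene is regulated by it.

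Signal at the X near-start peaks was low for most and high for a few. The authors' signal, whose scale is not stated and which is used within a list only, had a median of 15.1 over the 1789 peaks, with quartiles of 13.2 and 18.5 and a maximum of 141. Autosomal near-start peaks had a median of 15.2 and X peaks away from starts a median of 15.2. The medians near starts ran from 14.7 on chromosome V to 15.6 on chromosome I. Typical signal on X was therefore within the range of the autosomes, and the highest near-start value of any nuclear chromosome was on X. At the distance limit, the 144 peaks with summits 901 to 1000 bp from a start had a median signal of 14.6, and the 181 on X just outside, at 1001 to 1100 bp, had 14.9.

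The strongest X near-start peak lay 766 bp upstream of nspc-17 (WBGene00008359), a member of the nematode-specific peptide family, c. Its signal was 141 in the pooled list, 62.4 in replicate 1 and 77.0 in replicate 2. The peak 640 bp upstream of ins-39 (WBGene00017668), which encodes an insulin-like peptide, had 105 pooled, 34.2 in replicate 1 and 68.7 in replicate 2. Both peaks carry CGCGCAGGG or its reverse complement, as printed above. At puf-9 (WBGene00004245), a gene for a Pumilio-family RNA-binding protein, the summit 325 bp upstream had 87.3 pooled, 26.1 in replicate 1 and 60.6 in replicate 2. Next came rpl-11.2 (WBGene00004423), for a protein of the large ribosomal subunit, with 78.2 pooled, 35.9 and 39.6 in the replicates, 399 bp upstream. The translation elongation factor gene eef-1A.2 had its summit 399 bp upstream too, with 55.6 pooled, 24.0 in replicate 1 and 26.8 in replicate 2. These 5 peaks were present in both replicate lists, and replicate 2 had the higher signal at each; values of separately called lists are not a change between replicates.

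**Figure D1:**
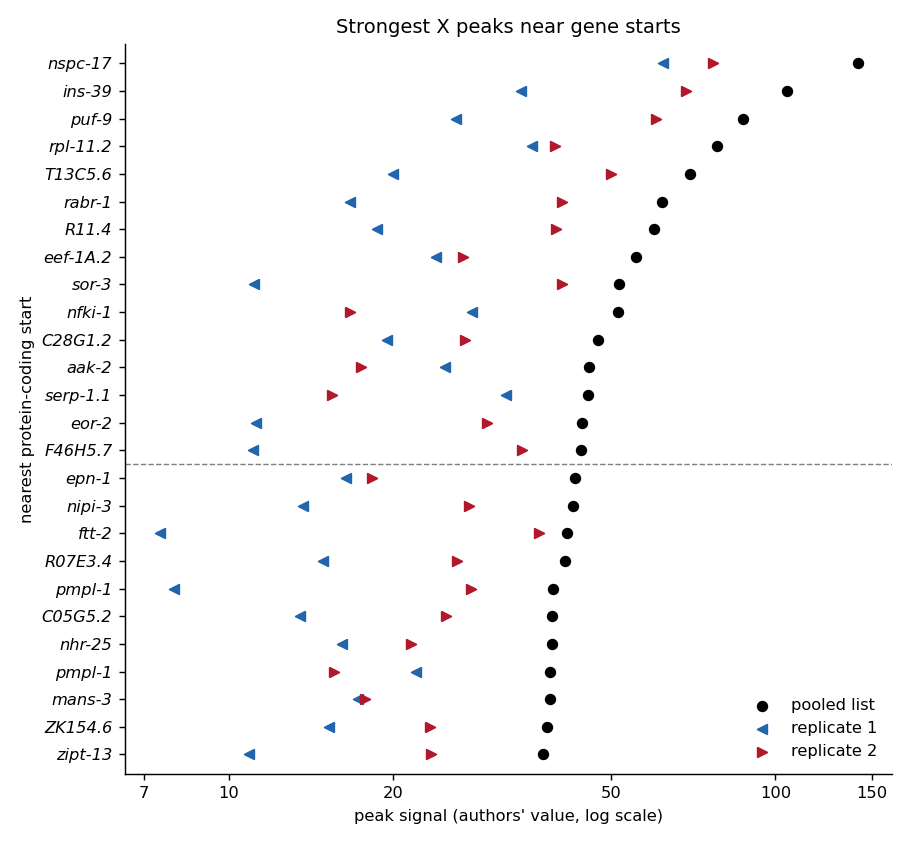
Signal of the 26 strongest X near-start peaks (log scale) in the pooled list (circles), replicate 1 (left triangles) and replicate 2 (right triangles), by nearest start; peaks above the dashed line are in the thresholded list. The nspc-17 peak leads with 141 pooled, and the 26 peaks reach down to 37.5 at zipt-13.

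Of the 26 strongest peaks, at 25 genes, all 26 were in both replicate lists, 17 lay upstream of the start and 4 lay within 200 bp of a tRNA gene. The replicates ranked several of them very differently. The nfki-1 peak had 27.8 in replicate 1, at rank 89, and 16.7 in replicate 2, at rank 2828. The ftt-2 peak, by a gene for a 14-3-3 protein, had 7.48 in replicate 1, at rank 11512, and 36.9 in replicate 2, at rank 92. At aak-2, which encodes a catalytic subunit of the AMP-activated kinase, the summit lay in coding sequence, with 45.7 pooled, 24.8 and 17.5. The nhr-25 peak, at the gene of a nuclear hormone receptor that acts in the epidermis and seam, lay in an intron 840 bp downstream of the start and had 38.9 pooled, 16.1 and 21.5. It was the strongest X near-start peak among the seam and epidermal regulators and was not in the thresholded list.

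The authors' list thresholded by reproducibility held 214 peaks, 189 of them nuclear and 43 on X. It included 15 of the 1789 X near-start peaks (0.838%, exact 95% interval 0.470 to 1.38). These 15 were also the strongest by pooled signal, at 44.0 or more, and none of the others was above 43.1. Over all nuclear pooled peaks the thresholded share was 0.631%. The share was 0.976% (96 of 9834) near autosomal starts, an odds ratio of 0.858 (Fisher's exact test, two-sided, adjusted p = 0.865 over 15 comparisons), and 0.706% (28 of 3968) at X peaks away from starts (odds ratio 1.19, adjusted p = 0.753 over 13 comparisons). Neither difference exceeded counting error. By chromosome the thresholded share of near-start peaks ran from 0.334% on V to 1.58% on III. All 15 members were in both replicate lists, as were all 96 thresholded autosomal near-start peaks. Only 4 of the 15 were among the 214 strongest peaks of each replicate and 9 among the 1000 strongest of each.

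Presence in both replicate lists was less common at X near-start peaks than at autosomal ones. It was found for 320 of 1789 (17.9%, exact 95% interval 16.1 to 19.7), against 2068 of 9834 (21.03%) near autosomal starts and 19.3% of all nuclear pooled peaks (odds ratio 0.818, Fisher's exact test, adjusted p = 0.00937). X peaks away from starts had 19.4% (Fisher's exact test, adjusted p = 0.551). Chromosome V, at 17.1%, lay below X, and the other autosomes lay between 21.6% and 24.2%. The replicate 1 list held 35.4% of the X near-start peaks and the replicate 2 list 67.2%, against 38.2% and 68.1% near autosomal starts, and neither share passed Fisher's exact test by itself (adjusted p = 0.0833 and 0.646). By the same exact test the call was also lost with starts within 500 bp (adjusted p = 0.187), with starts within 2000 bp (adjusted p = 0.198) and without peaks between divergent starts (17.7% against 20.2%, a check added after seeing the data, adjusted p = 0.0557).

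Within quintiles of the pooled list by signal, presence in both lists rose from 1.43% of X near-start peaks in the weakest quintile to 54.3% in the strongest. The autosomal near-start peaks went from 2.29% to 60.03%. In the middle quintile the values were 5.14% on X and 9.87% on the autosomes, and in the next weaker one X was the higher, at 4.31% against 3.89%. Stratified by quintile with the Mantel-Haenszel method, a check added after seeing the data, the odds ratio was 0.792 (n = 11623 peaks, adjusted p = 0.0118). Among the 320 X near-start peaks in both lists, the 2 replicate signals had a Spearman rho of 0.286 and a Pearson r of 0.447 on the log2 scale, across peaks that share the same 2 libraries.

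**Figure D2:**
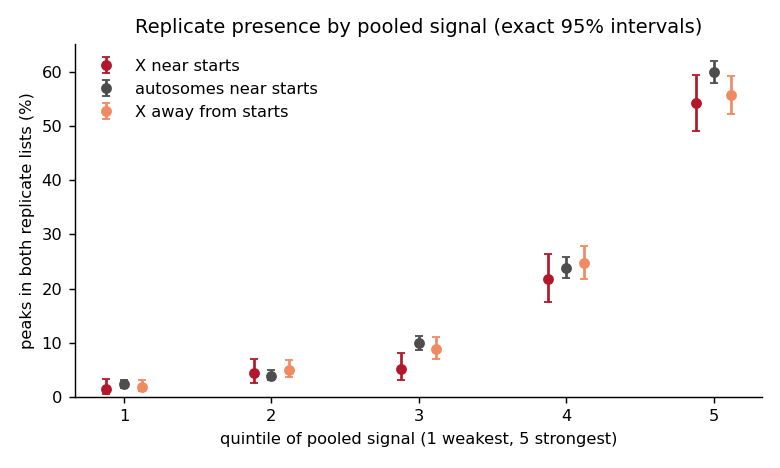
Share of peaks in both replicate lists (%) by quintile of pooled signal, for X near-start, autosomal near-start and X away peaks; lines are exact 95% intervals. The share on X near starts runs from 1.43% to 54.3%, and its intervals overlap those of the autosomes except in the middle quintile.

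Lying near a start went with a different change on X than on the autosomes together, in presence in both lists and in thresholded share. For presence in both lists, the odds ratio of near-start against other peaks was 0.906 on X and 1.18 on the autosomes, a ratio of 0.766 (95% interval 0.654 to 0.897, logistic interaction, n = 29975 peaks, adjusted p = 0.00189 over 2 measures). For the thresholded list the odds ratios were 1.19 and 2.83, a ratio of 0.421 (0.206 to 0.862, n = 29975 peaks, adjusted p = 0.0180). This test was added after the shares had been seen. Chromosome V had odds ratios of 0.899 and 0.759, both below those of X, whereas chromosomes I to IV had 1.23 to 1.42 and 2.05 to 7.12. Without chromosome V the ratios were 0.698 and 0.311. With starts within 2000 bp neither ratio passed the test (0.905 and 0.560), and the ratio for presence in both lists also missed the threshold for each replicate list alone (0.892 and 0.902). The thresholded ratio also missed the threshold without divergent starts (0.628). It missed it too with the replicate 1 list, its 214 strongest peaks taking the place of the thresholded list (0.551).

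**Figure D3:**
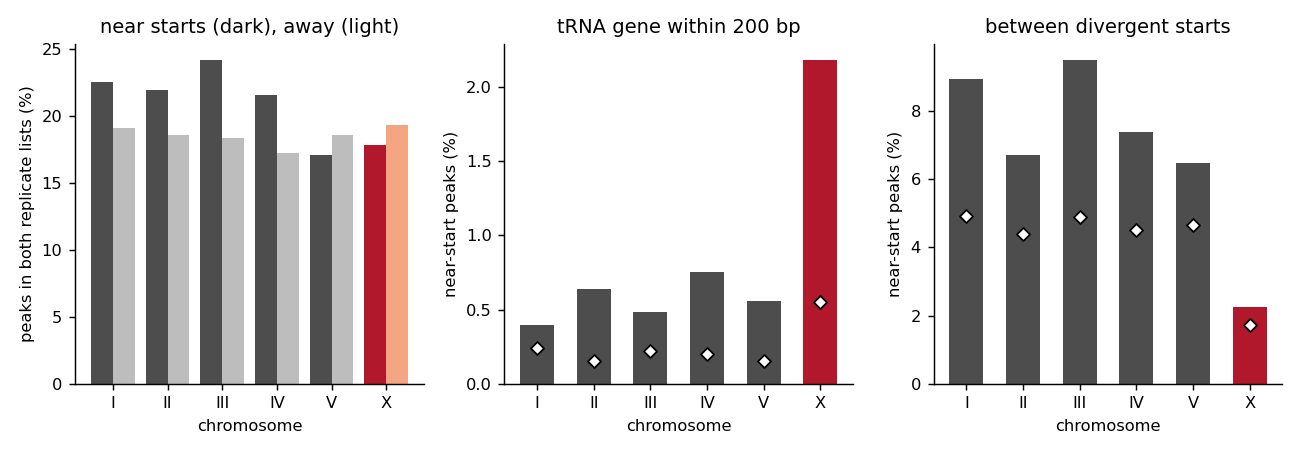
Left, share of peaks in both replicate lists (%) near starts (dark) and away (light) on each chromosome. Middle and right, share of near-start peaks (%) within 200 bp of a tRNA gene and between divergent starts (bars), with the share of all near-start positions that qualify (diamonds); X has 2.18% and 2.24%.

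Peaks beside tRNA genes, which RNA polymerase III transcribes, were more common near X starts than near autosomal starts. Such a gene was at most 200 bp from 39 X near-start summits (2.18% of 1789, exact 95% bounds 1.55 and 2.97), against 56 of 9834 (0.569%) near autosomal starts and 1.01% of all nuclear pooled peaks (odds ratio 3.89, Fisher's exact test, adjusted p = 1.02e-08). Every autosome had less, from 0.398% on I to 0.753% on IV. X also has more such ground: 276 tRNA genes against 336 on the 5 autosomes together, and 0.551% of near-start positions against 0.188%. Relative to these positions the peaks were 3.96-fold over on X and 3.02-fold over on the autosomes, and the difference between these folds was not tested. X peaks away from starts were beside a tRNA gene in 2.67% (Fisher's exact test, adjusted p = 0.551).

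The 39 X near-start peaks beside tRNA genes were stronger and more often in both replicate lists than the rest. Their median signal was 20.9, against 15.1 for the other 1750. They were in both lists in 17 of 39 (43.6%, exact 95% interval 27.8 to 60.4), against 303 of 1750 (17.3%), an odds ratio of 3.69 (Fisher's exact test, p = 0.000147, a comparison added after seeing the data). Neither presence in replicate 2 (82.1% against 66.9%, p = 0.0565) nor the set with starts within 500 bp (41.2% against 19.5%, p = 0.0573) passed the same exact test. The thresholded list held 3 of them, nearest to R11.4, sor-3 and C28G1.2. Of other small RNA genes, snoRNA genes lay within 200 bp of 4 X near-start summits (0.224%, against 0.407% near autosomal starts) and miRNA genes of 2 (0.112% against 0.122%). None had an snRNA gene that near, against 0.203%, but X has only 3 snRNA genes, and it has 0 rRNA genes.

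Divergent starts, where a pair of genes is transcribed away from a shared region, were under few X near-start peaks. The summit lay between such starts in 40 of 1789 (2.24%), against 750 of 9834 (7.63%) near autosomal starts and 6.8% over both (odds ratio 0.277, Fisher's exact test, adjusted p = 1.53e-19). Each autosome had more than X, from 6.46% on V to 9.48% on III. Divergent positions made up 1.71% of near-start positions on X and 4.65% on the autosomes. The peaks were 1.31-fold over this share on X and 1.64-fold over on the autosomes, a difference that was not tested. None of the 15 thresholded members lay at divergent starts, against 35 of the 96 thresholded autosomal near-start peaks.

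Summits near X starts lay somewhat farther from the start, a difference that was not tested. The median distance was 463 bp on X and 409 bp on the autosomes, and 22.4% against 26.7% lay within 200 bp. Upstream summits made up 983 of 1789 (54.9%) against 52.3% on the autosomes and 52.7% over both, which did not pass the exact test of Fisher (odds ratio 1.11, adjusted p = 0.112). By annotation 893 X near-start summits (49.9%) were not in a protein-coding gene, introns held 502, coding sequence 272, 5' untranslated regions 58 and 3' ones 64. Coding sequence held 15.2% of them on X and 21.5% on the autosomes. Near-start positions made up 28.9% of X and 36.0% of the autosomes, and X had 349 peaks per Mb of them against 331, with 154 starts per Mb against 209. Away from starts X had 315 peaks per Mb against 272.

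**Figure D4:**
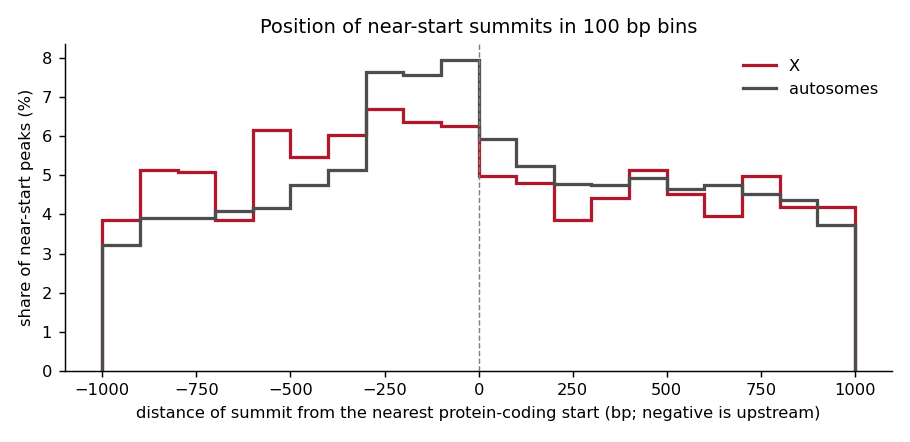
Share of near-start peaks (%) by distance of the summit from the nearest protein-coding start, in 100 bp bins (negative is upstream), for X and the autosomes. The autosomal profile is highest just upstream of the start, at 7.96%, where X has 6.26%.

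The differences in homeodomain words between X and autosomal near-start summits did not pass the test in the pooled list. Words were searched on both strands within 50 bp of the summit, TAAT also being part of TAATTA and TAATTG, and CGCGCA overlapping CGCAGGG in the joined form. TAATTA was found at 6.26% of the X near-start summits, against 5.23% near autosomal starts, 5.24% of all nuclear pooled peaks and 5.28% of X near-start positions (Fisher's exact test, adjusted p = 0.129). TAAT was at 66.9% against 66.7%, with 66.4% over all nuclear peaks (same exact test, adjusted p = 0.913). TAATTG was at 10.1% against 8.77%, with 9.17% over all nuclear peaks (exact test, adjusted p = 0.129). With the replicate 1 list in place of the pooled one TAATTG passed the exact test, at 10.2% against 7.96% (adjusted p = 0.0388). With the replicate 2 list it did not, at 9.56% against 8.63% (exact test, adjusted p = 0.432). Against their own flanks 500 bp away, left and right, TAATTA had 5.09% and 5.37% (exact McNemar tests, adjusted p = 0.428 and 0.616 over 20 tests). TAATTG, at 10.1% of the summits, had 7.60% and 9.06% in these flanks (exact McNemar tests, adjusted p = 0.0622 and 0.616).

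Of the 10 words searched, 1 passed the test against autosomal near-start peaks and none of the 10 against X peaks away from starts, where 2 had an unadjusted p under 0.05. TTTCAG, the usual end of a worm intron, was at 15.1% of X near-start summits and 20.95% of autosomal ones, with 19.9% over all nuclear peaks (odds ratio 0.674, Fisher's exact test, adjusted p = 4.3e-08). It was also less common in the ground itself, at 17.5% of near-start positions on X and 20.96% on the autosomes. GAGAGA was at 8.11% of X near-start summits, 6.56% of autosomal ones, 6.10% of X peaks away from starts and 6.73% of all nuclear peaks (exact tests, adjusted p = 0.0563 and 0.0814). In the stronger 50% of the pooled list GAGAGA passed against X peaks away from starts, at 9.70% against 6.31% (exact test, adjusted p = 0.0205). It was more frequent than in the right flank, 4.53% (exact McNemar test, adjusted p = 0.000216), and the difference from the left flank, 5.98%, did not pass (adjusted p = 0.0622). CGCGCA was at 1.68% against 2.28% (1.75% over all nuclear peaks, exact test, adjusted p = 0.171), and CGCAGGG at 5 summits, 0.279% against 0.244% (0.217% over all, exact test, adjusted p = 0.870). The AT-rich words and the GATA-type word TGATAA did not pass in the pooled list either: TGATAA was at 10.9% against 10.1% (9.96% over all), AATATT at 11.4% against 13.05% (12.2% over all) and TTTAAA at 17.05% against 17.3% (17.6% over all). AATATT passed with the replicate 2 list and with words within 100 bp, and TTTAAA with peaks in both lists, each less frequent on X.

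The 15 thresholded members differed in their words from the other 1774, all of which had lower pooled signal. GAGAGA was at 7 of 15 (46.7%) against 138 of 1774 (7.78%), an odds ratio of 10.4 (Fisher's exact test, adjusted p = 0.000387 over 10 words). CGCGCA was at 4 of 15 against 26 of 1774 (1.47%, odds ratio 24.5, exact test, adjusted p = 0.000387), at nspc-17, ins-39, T13C5.6 and rabr-1. CGCAGGG was at 2 of 15, nspc-17 and ins-39, against 3 of 1774 (exact test, adjusted p = 0.00216). TAAT was the less frequent, at 4 of 15 against 67.2% (odds ratio 0.177, exact test, adjusted p = 0.00405), and TAATTA was at none of the 15. GC content within 200 bp was 42.4% ± 4.72 (SD, n = 15 peaks) for the thresholded members and 34.5% ± 5.14 for the others, and its part in the word shares was not tested. With starts within 500 bp, 1 word passed in place of 4. The whole thresholded list, to which these 15 belong, was known to hold CGCGCA and GAGAGA often. The counts and p-values for these words are therefore not independent of earlier results. At nspc-17 and ins-39, CGCAGGG overlaps CGCGCA in a joined word, so CGCAGGG is not a separate result from CGCGCA.

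Set beside thresholded peaks elsewhere, GAGAGA was at 16 of 96 (16.7%) near autosomal starts 3 of 28 (10.7%) on X away from starts and 14 of 50 on autosomes away from starts. CGCGCA was at 15 of 96 (15.6%), 6 of 28 (21.4%) and 5 of 50, and TAAT at 36 of 96 (37.5%), 19 of 28 (67.9%) and 21 of 50. The joined word CGCGCAGGG, looked for after the 2 leading sequences had been seen, was at 2 of 15 thresholded X near-start peaks and 5 of 28 thresholded X peaks away from starts, and at 0 of 96 and 0 of 50 thresholded autosomal peaks near and away from starts. Among the other pooled peaks it was at 0 of 1774 X near-start summits, 0 of 3940 X summits away from starts and 2 of 9738 and 1 of 14334 autosomal ones. These counts were not tested.

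**Figure D5:**
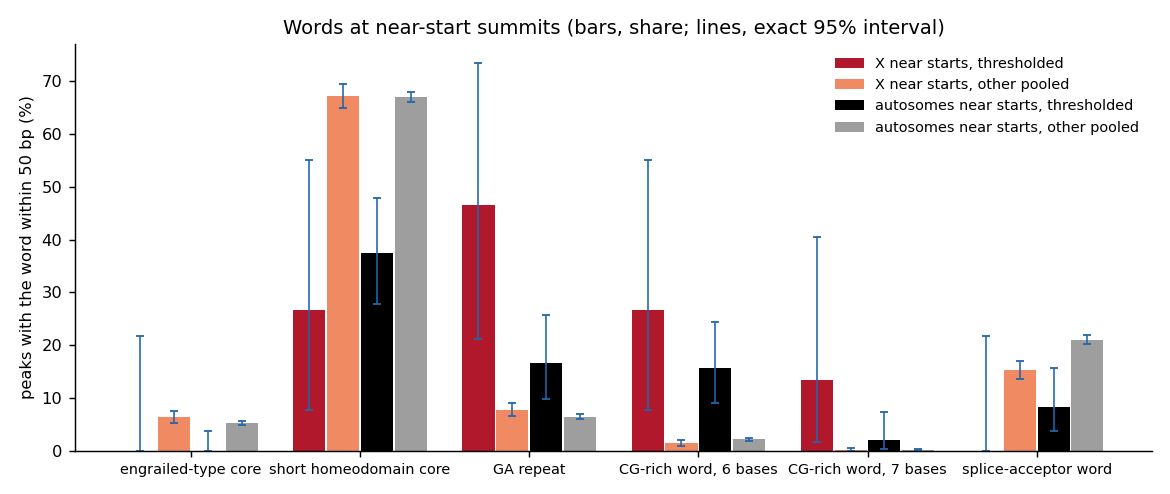
Share of near-start peaks (%) with each of 6 words within 50 bp of the summit, for thresholded and other pooled peaks on X and the autosomes; the engrailed-type core is TAATTA and the splice-acceptor word is TTTCAG, with exact 95% intervals as lines. The thresholded X peaks reach 46.7% for the GA repeat.

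A scan of all 2080 words of 6 bases found 46 more frequent (2.21%) and 49 less frequent (2.36%) at X near-start summits than at autosomal ones. ATTTTC led those less frequent, at 24.1% on X and 32.6% on the autosomes (Fisher's exact test, adjusted p = 7.16e-10). CCACTA led those more frequent, at 4.08% against 2.08% (exact test, adjusted p = 0.00035). GC content within 200 bp averaged 34.6% near X starts and 34.8% near autosomal ones. The share of all near-start positions was not computed for ATTTTC or CCACTA, so differences of the ground are not set apart. Peaks beside tRNA genes (2.18% on X, 0.569% on the autosomes) were kept in the scan, and their part in it was not tested. With peaks in both replicate lists only, 1 word passed in each direction.

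Near-start peaks of the pooled list, which includes background, lay by many of the X genes. Of its 2731 protein-coding genes, 1451 (53.1%) had a pooled summit within 1000 bp of their start, against 51.5% on the autosomes. A summit present in both lists was near 323 (11.8%), against 13.5% on the autosomes, and a thresholded one near 17 (0.622%). As nearest start, 1388 genes took the 1789 peaks, 1036 of them 1 peak each, 304 with 2 and 48 with 3 or 4. Along X the 17 full bins of 1 Mb held 55 to 129 members, with a median of 107.

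Of the 6 dosage compensation and sex determination genes of the list on X, 5 had one and 1 had one in both lists, against 53.1% and 11.8% of all X genes, and the median of their best signals was 12.3 against 15.9 over X genes with a peak. At xol-1, the switch gene that sets male fate, the only peak lay 913 bp upstream, with 12.3 pooled and 9.24 in replicate 2, and it was not in replicate 1. The dosage compensation genes sdc-1 and sdc-2 had 11.8 and 11.7 pooled, each present in 1 replicate. The X signal element genes fox-1, for an RNA-binding protein, and ceh-39, for a ONECUT homeodomain protein, had 16.6 and 23.2, of which the latter was in both lists. No pooled summit lay within 1000 bp of the start of sex-1, the nuclear receptor of the same set.

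All 3 seam and epidermal regulators on X had a near-start peak, and 2 had one in both lists, where 53.1% and 11.8% of all X genes did. Beside nhr-25, the sma-9 peak, at the gene of a Schnurri-family transcription factor, had 37.3 pooled, 18.1 and 18.5, 985 bp upstream. At elt-3, a GATA factor of the epidermis, the signal was 11.8 pooled, in neither replicate list. All 3 Wnt genes had a peak. The mom-1 peak, 28.8 pooled, 8.21 and 14.4, was beside a tRNA gene and nearer to the start of lev-9, while those at lin-18, a Ryk-type receptor, and bar-1, a beta-catenin, had 14.7 and 12.8 and were in neither replicate list. Of the heterochronic genes, which time larval development, 6 of 7 had a peak and 2 in both lists, led by the kinase gene kin-20 with 36.1 pooled, 16.3 and 20.5, and lin-14 had none.

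In the larger families the share with a near-start peak was 12 of 26 for homeobox genes, 17 of 27 for nuclear hormone receptors, 16 of 34 for neuropeptides and insulin-like peptides, 18 of 30 for cuticle collagens and 6 of 13 for hedgehog-related genes. Peaks in both lists were near 2, 5, 5, 5 and 2 of these genes. Over all X genes the shares were 53.1% and 11.8%. Among the named members besides ins-39 and nhr-25 were nhr-137 with 33.2, ceh-28 with 29.6, hog-1 with 29.1, nhr-17 with 28.1 and col-185, beside a tRNA gene, with 27.5. Of tissue lists, 3 of 6 pan-neuronal, 4 of 8 muscle and 5 of 12 intestine genes on X had a peak, with 2, 1 and 0 in both lists. Both ribosomal protein genes on X had one, rpl-11.2 as above and rpl-25.1 with 13.6, and of fusion and junction genes 2 of 5 did, eat-20 with 18.8 and ajm-1 with 12.4. No germline list gene lies on X.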

How the data were processed

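Peak lists were used as the authors deposited them, with peaks called for each of 2 biological replicates and on the pooled replicates, on ce11. The pooled list and that of replicate 2 hold 30000 peaks each and that of replicate 1 holds 19150. For the aligner and the caller nothing is given in the sources used here, and no control was analysed here. The deposited signal of a peak is the authors' own value, of unstated scale. No read counts are given, so depth is unknown, and p-values and intervals (exact Clopper-Pearson, 95%) cover counting of peaks only, since all peaks share the same libraries. There were 0 columns left unmapped.

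Genes came from Ensembl release 115 (WBcel235) and sequences from the RefSeq genome of the same assembly. Summits were matched between lists within 200 bp, so a replicate summit could match several pooled peaks. Some pooled peaks overlapped, as at C05G5.2, where both took a replicate 1 signal of 13.5. The tests and intervals treat such peaks as independent. Differences in share were tested with Fisher's exact test (two-sided, Benjamini-Hochberg adjusted per contrast), flanks by exact McNemar tests, and near-start effects by a logistic interaction term. The steps were tested on simulated data. Named were thresholded members, then members by signal up to 25 genes, up to 3 genes per list and a fixed set of 11 genes. The members, words and lists were chosen with earlier results of these data known. The interaction, the comparison of members beside tRNA genes, the word CGCGCAGGG and the alternatives on chromosome V, signal quintiles, tRNA genes and divergent starts were added after seeing the data. Tools were statsmodels 0.14.6, scipy 1.17.1, pandas 2.3.3, numpy 2.4.6 and Python 3.11.15.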

Additional observations from a re-analysis of the deposited data

How the results depend on the processing

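Of 269 recomputed values, 192 kept direction and side of the threshold, 35 reversed, 13 lost the threshold, 7 gained it and 22 counts moved by over 1.5 times; the cause was not tested. No setting changed the tRNA or divergent calls against autosomal near-start peaks. No paired analysis was possible because there is only 1 group. Depth is unknown, and replicate presence depends on lists of different length.

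Values are odds ratios unless said otherwise. With 1 replicate, presence in both lists became presence of the pooled peaks in that replicate's list. Other values with 1 replicate used the peaks of that list, its 214 strongest taking the place of the thresholded list. Presence in both lists against autosomal peaks was 0.844 at 500 bp, 0.931 at 2000 bp and 0.853 without divergent starts, and 0.888 to 0.961 with 1 replicate, none past the threshold. The thresholded share was 1.05 at 2000 bp and 1.28 without divergent starts, and 0.850 to 0.851 with 1 replicate. The upstream share was 0.995 for peaks in both lists and 1.06 to 1.18 with 1 replicate, the latter (replicate 1 only) past the threshold. Against X peaks away from starts, the thresholded share was 0.879 to 1.26 and the tRNA share 0.661 to 1.02 with 1 replicate, and presence in both lists was 1.07 at 500 bp and 1.001 at 2000 bp. The near-start effect ratio was 0.560 (2000 bp), 0.628 (no divergent starts) and 0.405 to 0.551 (1 replicate) for the thresholded list, and 0.905 (2000 bp) and 0.892 to 0.902 (1 replicate) for both lists. Members beside tRNA genes had 2.90 at 500 bp and 2.27 to 2.41 with 1 replicate.

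Words passing against autosomal peaks numbered 2 for peaks in both lists, with 1 replicate left out (2 to 2) and within 100 bp. Against X peaks away from starts they numbered 1 at 500 bp and 1 in the stronger 50%. In thresholded members 1 passed at 500 bp. Of the scanned words, 2.21% were more and 2.36% less frequent; these shares became 0.337% and 0.817% at 500 bp, 3.798% and 4.23% at 2000 bp, 0.337% and 0.529% in the stronger 50%, 0.0481% and 0.0481% for peaks in both lists, 0.192% and 0.481% within 25 bp, 6.73% and 5.38% within 100 bp, and 0.529% to 1.11% and 0.913% to 1.78% with 1 replicate.

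Single words that gained the threshold against autosomal peaks were TAATTG (1.31 without replicate 2), AATATT (0.786 without replicate 1, 0.794 within 100 bp) and TTTAAA (0.631, both lists), and against X peaks away from starts CGCGCA (2.16 at 500 bp) and GAGAGA (1.60, stronger 50%). Single words that reversed were uncalled before and after. Against autosomal peaks these were TAAT (0.931 at 500 bp, 0.968 within 100 bp), CGCGCA (1.28, both lists), CGCAGGG (0.978 to 2.79 with 1 replicate), TGATAA (0.966 at 500 bp, 0.965 in both lists, 0.929 within 100 bp), AATATT (1.04, stronger 50%) and TTTAAA (1.03 at 2000 bp, 1.09 within 25 bp). Against X peaks away from starts they were TAATTA (0.971 in the stronger 50%, 0.892 to 1.01 with 1 replicate), TAATTG (0.958 to 1.17 with 1 replicate, 0.963 within 100 bp), TAAT (1.02 at 2000 bp, 1.01 in the stronger 50%, 0.994 to 1.04 with 1 replicate) and CGCAGGG (1.60 at 2000 bp, 0.611 to 1.42 with 1 replicate). They were also TTTCAG (1.07 at 2000 bp), AATATT (1.04 at 2000 bp, 1.08 in the stronger 50%, 1.06 within 25 bp, 0.890 to 1.05 with 1 replicate) and TTTAAA (1.07 at 2000 bp, 1.01 in the stronger 50%, 1.05 within 25 bp, 0.957 to 1.02 with 1 replicate).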
